A study of Mus musculus with 22 samples.

Results

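The genes described here are those of Nodal signalling in differentiating mouse embryonic stem cells: the ligand Nodal, its co-receptor Tdgf1, the receptors Acvr1b and Acvr2b, the effectors Smad2 and Foxh1, and the inhibitors Lefty1, Lefty2, Smad7 and Cer1. They were taken by symbol from tables of read counts per gene and are 10 of the 52535 genes in each table. RNA was sequenced from E14, an embryonic stem cell line, kept in medium with serum, LIF and inhibitors of MEK and GSK and then left for 1 day without LIF and inhibitors in 2 µM retinoic acid. The 12 libraries fell into 4 genotypes of 3 libraries: E1-KO, E2-KO and D-KO, in which enhancer elements called E1 and E2 were removed, and unedited WT. The labels do not spell out D-KO, which is read here as the loss of both elements. The question of the series is the action of these enhancers on HoxB expression and on the first steps of differentiation. Every group, WT included, was treated with retinoic acid, so no untreated level is compared. The series calls the libraries biological replicates and does not state whether separate cultures or clones were used, so p-values cover the spread between these samples, which may be technical, and no more.

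Nodal is a secreted ligand of the TGF-beta family. With the co-receptor Tdgf1, also called Cripto, it binds activin receptors of type I and type II, which phosphorylate Smad2 and Smad3. These enter the nucleus with Smad4 and, together with DNA-binding partners such as Foxh1, act on target genes that include Nodal itself and its secreted inhibitors Lefty1 and Lefty2, a feedback loop known from the early mouse embryo and from embryonic stem cells.

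Counted reads per library numbered 9101547 to 13007735, and 9 of the 10 genes had enough reads to be tested among 16765 genes. The WT libraries differed more among themselves than those of the other genotypes, with a median SD per gene of 0.11 in E1-KO, 0.12 in E2-KO, 0.12 in D-KO and 0.35 in WT on the log2 CPM scale. WT replicates 1 and 3 also leaned towards genes of low GC content: the Spearman correlation over genes of relative expression with GC was 0.25 to 0.35 for E1-KO, 0.30 to 0.43 for E2-KO and -0.10 to -0.02 for D-KO, and -0.56, 0.14 and -0.43 in WT replicates 1, 2 and 3. Values against WT are therefore also given without WT replicates 1 and 3, or with GC and length trends removed, where this ends a call, turns a direction or moves a called value by more than 1.5 times. Mitochondrial genes took 1.36 to 1.48% of counts for E1-KO, 1.63 to 1.81% for E2-KO and 2.53 to 2.69% for D-KO, against 3.5%, 1.94% and 5.88% in WT replicates 1, 2 and 3, and the part of this in the levels below was not tested. The summed level of Hoxb1 to Hoxb9 was 9.48 to 10.3 CPM for E1-KO, 13.5 to 14.5 for E2-KO and 2.52 to 4.68 for D-KO, against 91.4 to 194 in WT. The 9 summed pluripotency markers stood at 2940 to 5800 CPM in all libraries, and the 7 fibroblast markers at 3.81 to 8.15 CPM. Levels below are CPM, the counts scaled to a common library size by TMM, errors of levels are SDs over 3 libraries, and those of log2 fold changes standard errors. All adjusted p-values are from edgeR's quasi-likelihood test with Benjamini-Hochberg adjustment over all genes tested, and a gene was called at an adjusted p below 0.05. In the fit of all 12 libraries, the test used 1 spread per gene for all 4 genotypes, although WT varied more than the deletions. The 3 comparisons with WT share the same WT libraries and are not independent of each other.

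Against WT, the secreted inhibitors Lefty1 and Lefty2 fell in each deletion genotype, Lefty1 the most in E1-KO and the least in D-KO. The intracellular inhibitor Smad7 and the type I receptor Acvr1b rose in both single deletions and did not pass the test in D-KO. Nodal was called higher in E2-KO and D-KO by less than 1.5-fold, calls that depended on single libraries, and Tdgf1 rose in D-KO. Of the 9 genes tested, 6 were called in E1-KO against WT, 2 higher and 4 lower, where 34.2% of all genes were called, 15.7% higher and 18.5% lower. In E2-KO against WT 5 were called, 3 higher and 2 lower, against 35.3% of all genes (16.7% higher, 18.6% lower), and in D-KO against WT 4, 2 in each direction, against 22.8% (10.6% higher, 12.2% lower). Calls were frequent among all genes here, so these counts are given as a description of the 9 genes and not as a property particular to them. The median log2 fold change of the 9 genes was -0.20 for E1-KO, -0.07 for E2-KO and 0.11 for D-KO, beside -0.01, 0.00 and -0.02 for all genes tested.

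**Figure D1:**
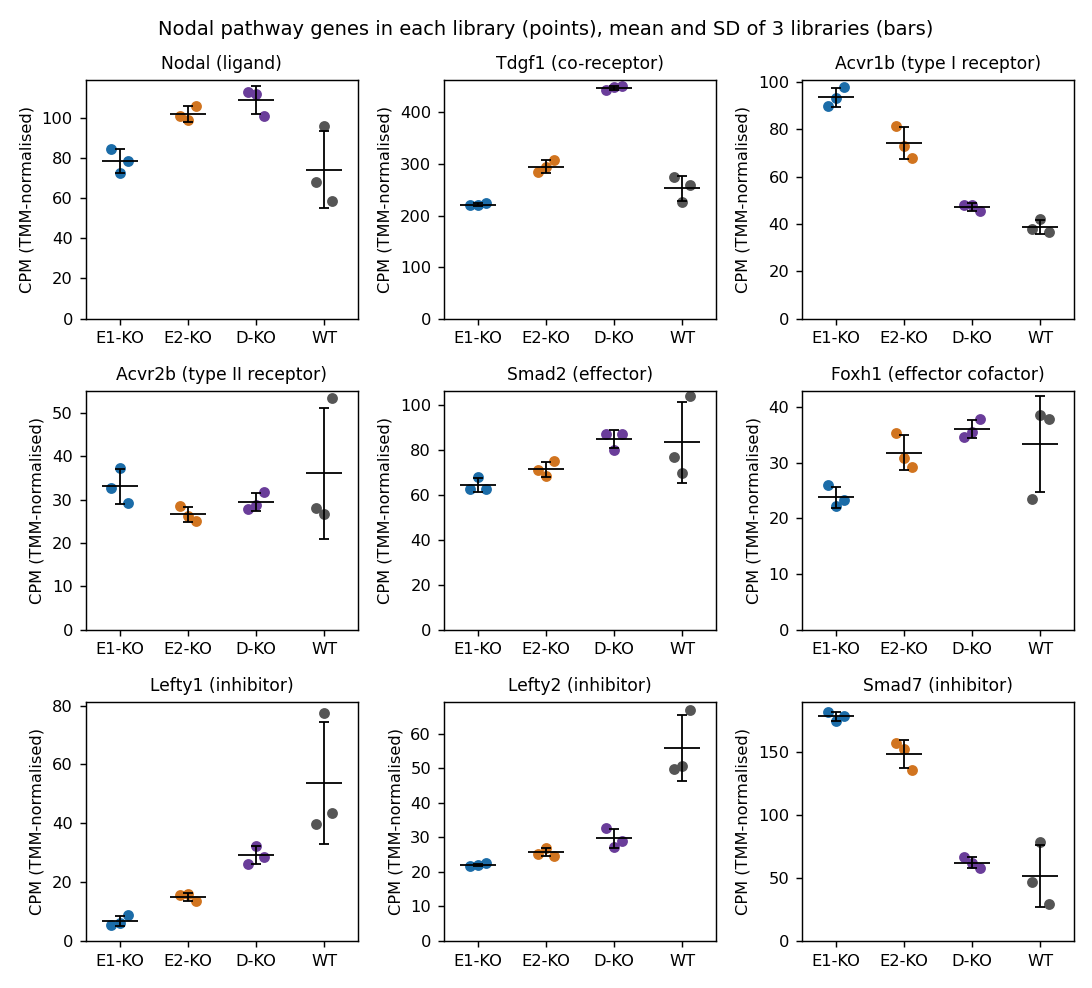
Level of the 9 tested Nodal pathway genes in CPM (vertical axes, from 0) in the 3 libraries of E1-KO, E2-KO, D-KO and WT; points are libraries, and bars the mean and SD. Lefty1 and Lefty2 lie below WT in every deletion library, while Acvr1b and Smad7 are high in E1-KO and E2-KO, with D-KO near WT.

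Nodal, the ligand itself (chromosome 10, bases 61417972 to 61425338 of GRCm38, plus strand), had smaller fold changes than its secreted inhibitors. Its level was 84.3, 72.6 and 78.5 CPM in E1-KO, 101, 98.8 and 106 CPM in E2-KO and 113, 112 and 101 CPM in D-KO, against 68.3, 95.8 and 58.6 CPM in WT. All E2-KO and D-KO libraries lay above all WT libraries, WT replicate 2 only narrowly, whereas E1-KO overlapped WT. The log2 fold change was 0.08 ± 0.15 in E1-KO (adjusted p = 0.715), 0.46 ± 0.15 in E2-KO (adjusted p = 0.0275) and 0.55 ± 0.15 in D-KO (adjusted p = 0.0166). The E2-KO call was lost without WT replicate 1 (0.40), WT replicate 3 (0.31), or E2-KO replicate 1 (0.47), 2 (0.49) or 3 (0.43), at adjusted p = 0.0575 to 0.0827. The D-KO call was lost without WT replicate 1 (0.48) or D-KO replicate 1 or 2 (0.52 each), at adjusted p = 0.0501 to 0.0613. Both calls were also lost in edgeR fits of WT and that genotype alone. There E2-KO stood at 0.45 (adjusted p = 0.135) and D-KO at 0.55 (adjusted p = 0.114). In E1-KO the direction turned with the WT libraries used: 0.31 without WT replicate 2 (adjusted p = 0.0172), -0.06 without WT replicate 3 and -0.28 with WT replicate 2 alone (adjusted p = 0.00491). With WT replicate 2 alone, E2-KO stood at 0.10 and D-KO at 0.18, neither called, and with GC and length trends removed E2-KO stood at 0.06. The 250 bases before the Nodal start, shown because this is the ligand gene on which the pathway feeds back (RefSeq, GRCm38.p6, chr10:61417722-61417971, plus strand), hold no match, on either strand, to the Foxh1 motif AATNCACA, the Smad motif CAGAC or the retinoic acid receptor half-site AGGTCA, and so no capitals.
Nodal: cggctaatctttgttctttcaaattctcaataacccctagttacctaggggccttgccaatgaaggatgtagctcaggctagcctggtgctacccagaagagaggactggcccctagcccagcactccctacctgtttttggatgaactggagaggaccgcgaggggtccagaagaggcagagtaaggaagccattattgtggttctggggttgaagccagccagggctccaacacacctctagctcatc
Of 32851 promoter windows of this length, 3.18% hold the Foxh1 motif, 42.2% the Smad motif and 14% the half-site, and the absence of a match says only that these letters are not in this window. Of the 10 genes, 5 matched the RefSeq promoter table, Nodal, Tdgf1, Acvr1b, Acvr2b and Cer1, and the last 2 hold 1 Smad motif each.

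Tdgf1, the membrane-anchored co-receptor for Nodal (chromosome 9, bases 110939603 to 110946158, minus strand), was the most abundant of these genes per length in each genotype, at 115 ± 1.48 CPM per kb of its longest transcript for E1-KO, 153 ± 6.29 for E2-KO and 232 ± 2 for D-KO, against 131 ± 12.7 in WT. Its level was 220, 220 and 225 CPM in E1-KO, 284, 294 and 308 CPM in E2-KO and 444, 449 and 451 CPM in D-KO, against 275, 227 and 259 CPM in WT. The D-KO libraries stood far above all others, the E2-KO libraries just above WT and the E1-KO libraries just below it. Tdgf1 rose in D-KO, with a log2 fold change of 0.82 ± 0.10 (adjusted p = 5.21e-05), a 1.77-fold difference. It stood at 0.22 ± 0.10 in E2-KO (adjusted p = 0.0904) and -0.20 ± 0.10 in E1-KO (adjusted p = 0.134). These calls changed with the WT libraries: without WT replicate 2 E1-KO was called at -0.27 (adjusted p = 0.00547), E2-KO was called without WT replicate 1 (0.28) or 3 (0.23), and with GC and length trends removed E1-KO stood at 0.01 and E2-KO was called at 0.38 (adjusted p = 0.000434). Of the 50-base windows of the longest Tdgf1 transcript, 12.5% also occur in the pseudogene Tdgf1-ps1, so a part of its reads may be split or set aside as ambiguous. The window before the Tdgf1 start, shown because Tdgf1 had the largest called rise of the 9 genes in D-KO (RefSeq, GRCm38.p6, chr9:110946159-110946408, read on the minus strand), holds 1 Smad motif, 113 to 109 bases before the start, in capitals, and no Foxh1 motif or half-site.
Tdgf1: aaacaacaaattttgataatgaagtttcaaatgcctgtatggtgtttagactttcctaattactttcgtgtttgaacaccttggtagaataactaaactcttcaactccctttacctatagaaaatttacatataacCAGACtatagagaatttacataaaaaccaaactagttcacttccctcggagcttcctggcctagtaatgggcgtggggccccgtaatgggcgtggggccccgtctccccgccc

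Acvr1b, the type I receptor also known as the activin receptor-like kinase of this pathway (chromosome 15, bases 101174067 to 101213684, plus strand), rose in both single deletions. Its level was 89.7, 93 and 97.8 CPM in E1-KO, 81.5, 73.1 and 67.9 CPM in E2-KO and 48, 47.9 and 45.3 CPM in D-KO, against 37.8, 42 and 36.4 CPM in WT. None of these groups overlapped, and the D-KO libraries lay just above WT. The log2 fold change was 1.27 ± 0.10 in E1-KO (2.41-fold, adjusted p = 1.36e-06), 0.94 ± 0.10 in E2-KO (1.91-fold, adjusted p = 2e-05) and 0.28 ± 0.11 in D-KO (adjusted p = 0.0688). The single-deletion calls held under all 20 alternatives, a count that here and below leaves out the fit with WT replicate 2 alone. D-KO was called without WT replicate 2 (0.35, adjusted p = 0.0107). The window before the Acvr1b start is shown beside that of Tdgf1 because these genes had opposite orders over the 3 deletions (RefSeq, GRCm38.p6, chr15:101173822-101174071, plus strand). It has 78.8% GC and no match to any of the 3 motifs.
Acvr1b: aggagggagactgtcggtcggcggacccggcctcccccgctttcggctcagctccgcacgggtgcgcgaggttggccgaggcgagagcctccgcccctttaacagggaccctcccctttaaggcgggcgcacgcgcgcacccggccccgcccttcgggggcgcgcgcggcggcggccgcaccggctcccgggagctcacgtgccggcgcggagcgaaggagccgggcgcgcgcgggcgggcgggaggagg

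Acvr2b, a type II receptor (chromosome 9, bases 119402118 to 119434995), passed the test in none of the comparisons. It averaged 33.1 ± 3.98 CPM for E1-KO, 26.7 ± 1.74 for E2-KO and 29.5 ± 2.16 for D-KO, against 28, 26.8 and 53.5 CPM in the WT libraries. WT replicate 3 stood apart from all other libraries, and every deletion group overlapped WT. The log2 fold changes were -0.11 ± 0.21 for E1-KO, -0.43 ± 0.21 for E2-KO and -0.28 ± 0.21 for D-KO (adjusted p = 0.704, 0.136 and 0.371). Without WT replicate 3 they were 0.28 in E1-KO and 0.10 in D-KO, and without WT replicate 2 E2-KO was called at -0.60 (adjusted p = 0.0268), as it was at -0.72 with GC and length trends removed (adjusted p = 0.0469). As a ratio of reads within a library, Acvr1b had 285 ± 43.2 per 100 Acvr2b reads for E1-KO, 277 ± 7.77 for E2-KO and 160 ± 16.4 for D-KO, against 120 ± 46.4 in WT.

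Smad2, the effector that the receptors phosphorylate (chromosome 18, bases 76241580 to 76310963), had 62.4, 68.1 and 62.5 CPM in E1-KO, 71, 68.2 and 74.8 CPM in E2-KO and 87, 80 and 87.2 CPM in D-KO, against 76.6, 69.7 and 104 CPM in WT. E1-KO lay below WT without overlap, narrowly, and the other genotypes overlapped WT. The log2 fold change was -0.37 ± 0.13 in E1-KO (adjusted p = 0.0411), -0.22 ± 0.13 in E2-KO (adjusted p = 0.199) and 0.03 ± 0.13 in D-KO (adjusted p = 0.912). The E1-KO call held in 2 of 12 fits that left out 1 library, those without WT replicate 1 or 2. The other 10 gave -0.18 without WT replicate 3 (adjusted p = 0.13), -0.41 without E1-KO replicate 2, -0.35 without E1-KO replicate 1 or 3, and -0.37 without any of the E2-KO or D-KO libraries, with adjusted p up to 0.126 for the last 9. With WT replicate 2 alone the E1-KO value was -0.10, and with GC and length trends removed 0.03. It was not called with limma voom (-0.33), library totals (-0.25), no filter (-0.36), a replicate block (-0.36) or only the genotypes compared (-0.37). By contrast, E2-KO was called at -0.34 without WT replicate 2 (adjusted p = 0.0215) and at 0.31 with the trends removed (adjusted p = 0.00816), and D-KO at 0.39 with the trends removed (adjusted p = 0.00208) and at 0.28 with WT replicate 2 alone (adjusted p = 0.00734).

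Foxh1, the forkhead protein that brings Smad complexes to DNA (chromosome 15, bases 76668225 to 76669948), had 25.9, 22.3 and 23.3 CPM in E1-KO, 35.4, 30.8 and 29.3 CPM in E2-KO and 34.6, 35.5 and 37.8 CPM in D-KO, against 23.4, 38.6 and 37.8 CPM in WT. WT replicate 1 stood as low as E1-KO, so that every deletion group overlapped WT. The log2 fold change was -0.48 ± 0.17 in E1-KO (adjusted p = 0.0385), -0.07 ± 0.17 in E2-KO (adjusted p = 0.784) and 0.11 ± 0.17 in D-KO (adjusted p = 0.665). Leaving out 1 library kept the E1-KO call in 2 of 12 fits, those without WT replicate 1 or E2-KO replicate 1. The other 10 gave -0.35 and -0.38 without WT replicates 2 and 3, -0.54, -0.43 and -0.46 without E1-KO replicates 1, 2 and 3, and -0.47 or -0.48 without the remaining E2-KO or any D-KO library, at adjusted p = 0.0523 to 0.122. The E1-KO call was also lost with limma voom (-0.46), library totals (-0.37), a replicate block (-0.47) and only the genotypes compared (-0.48). With GC and length trends removed E1-KO was still called, at -1.03. E2-KO was then called at -0.69 (adjusted p = 0.00816), and D-KO stood at -0.30. E2-KO stood at 0.07 and 0.02 without WT replicates 2 and 3, and D-KO at -0.09 without WT replicate 1.

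**Figure D2:**
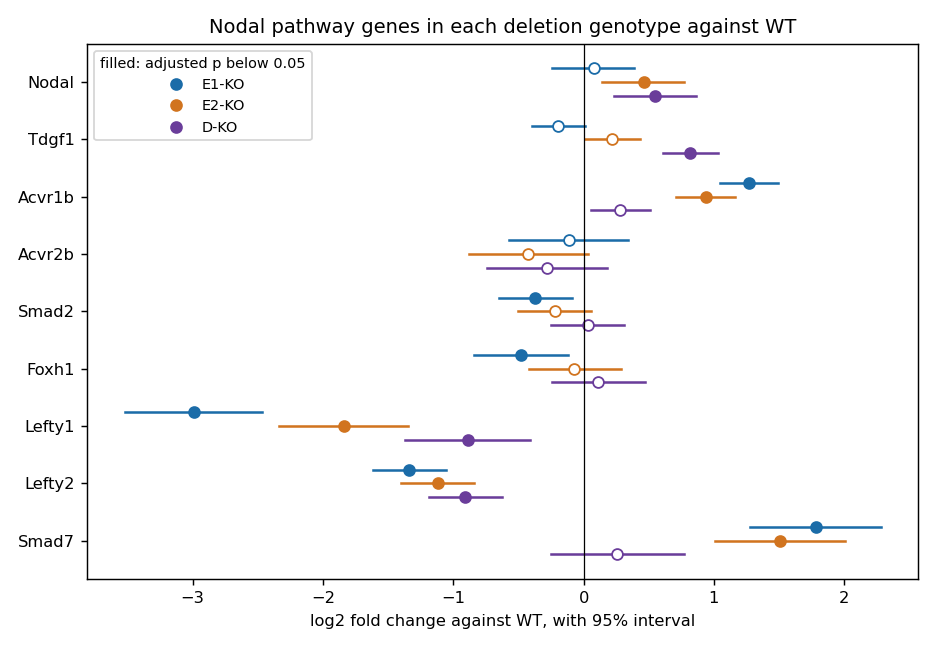
Log2 fold change against WT (horizontal axis) with its 95% interval for each tested Nodal pathway gene in E1-KO, E2-KO and D-KO, from edgeR on all 12 libraries; filled points have an adjusted p below 0.05. Lefty1 runs from -2.99 in E1-KO to -0.89 in D-KO, and Smad7 is at 1.78 and 1.51 in the single deletions and 0.26 in D-KO.

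Lefty1, a secreted antagonist of Nodal and of its co-receptor (chromosome 1, bases 180935022 to 180938400), had the widest spread over genotypes of the genes described. Its level was 5.5, 6.04 and 8.77 CPM in E1-KO, 15.7, 16 and 13.4 CPM in E2-KO and 26.3, 32.4 and 28.6 CPM in D-KO, against 39.9, 77.6 and 43.4 CPM in WT. No genotype overlapped another, and WT replicate 2 stood well above the other WT libraries. Lefty1 fell by 2.99 ± 0.25 on the log2 scale in E1-KO (7.97-fold lower, adjusted p = 1.62e-06), by 1.84 ± 0.23 in E2-KO (3.59-fold lower, adjusted p = 6.06e-05) and by 0.89 ± 0.22 in D-KO (1.85-fold lower, adjusted p = 0.0116). The single-deletion calls held under all 20 alternatives. The D-KO call was lost without D-KO replicate 1 (-0.81, adjusted p = 0.0571) and in a fit of D-KO and WT alone (-0.88, adjusted p = 0.0658). It was -0.51 and still called without WT replicate 2, and -1.41 with WT replicate 2 alone. Markers of primitive and visceral endoderm had the same order of genotypes: 12 summed genes gave 39.8 to 42.8 CPM for E1-KO, 83.8 to 86.9 for E2-KO and 98.3 to 103 for D-KO, against 172 to 179 in WT. Of these 12, Afp and Apoa1 had no count in E2-KO, Ttr none in D-KO, and Ttr and Afp none in WT, and 7, 7 and 6 of the 9 tested were lower in E1-KO, E2-KO and D-KO, beside 18.5%, 18.6% and 12.2% of all genes. Amn, which encodes a protein of the visceral endoderm surface, was called higher in each (1.31, 2.08 and 1.62, adjusted p = 0.0272, 0.0018 and 0.0126). Gata6 had the highest level of these markers, at 16.2 CPM for E1-KO, 36.6 for E2-KO and 46.2 for D-KO, against 70.6 in WT. In D-KO against E2-KO, 1 of the 9 tested was called higher and 0 lower, beside 1.84% and 2.64% of all genes. Between these genotypes Gata4 (6.83 in E2-KO and 5.66 in D-KO) and Amn (8.63 and 6.29) ran against the order of the sum. The 6 markers of formative and primed epiblast had medians of -2.11 for E1-KO, -1.07 for E2-KO and -0.03 for D-KO, and 1.35 in D-KO against E1-KO. Against WT 4 of them were called lower and 1 higher in E1-KO, 3 lower and 1 higher in E2-KO, and 1 lower and 2 higher in D-KO, none at 0 counts. Their summed level had another order. It was 211 to 221 CPM for E1-KO, 237 to 244 for E2-KO and 320 to 337 for D-KO, against 175 to 216 in WT. Most of that sum was Dnmt3b alone, at 204 CPM for E1-KO, 219 for E2-KO and 301 for D-KO, against 151 in WT. The order of the sum is therefore mainly that of 1 gene. In bulk RNA, fewer cells of a type and less RNA per cell cannot be told apart, and the part of both marker lists in the Lefty1 levels was not tested.

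Lefty2, the neighbouring paralog with a like role (chromosome 1, bases 180893108 to 180899103, 35918 bases before Lefty1), also fell in each deletion genotype, in a narrower range. Its level was 21.7, 21.9 and 22.5 CPM in E1-KO, 25.3, 27 and 24.7 CPM in E2-KO and 32.7, 27.3 and 29 CPM in D-KO, against 49.8, 50.6 and 66.9 CPM in WT. All deletion libraries lay below all WT libraries. The log2 fold change was -1.34 ± 0.13 in E1-KO (2.53-fold lower, adjusted p = 6.32e-06), -1.12 ± 0.13 in E2-KO (2.17-fold lower, adjusted p = 3.1e-05) and -0.91 ± 0.13 in D-KO (1.88-fold lower, adjusted p = 0.000242), and these 3 calls held under all 20 alternatives. The copies share sequence: 17.9% of 50-base windows of Lefty1 occur in Lefty2 and 11.6% of those of Lefty2 in Lefty1, so reads there could not be assigned to 1 of them with certainty. Relative to the ligand, Lefty1 had 6.52, 8.32 and 11.2 reads per 100 Nodal reads in E1-KO libraries, 15.4, 16.2 and 12.6 in E2-KO libraries and 23.2, 29 and 28.5 in D-KO libraries, against 58.4, 81 and 74 in WT. Lefty2 had 28.2 ± 2.2 reads per 100 Nodal reads for E1-KO, 25.2 ± 2.09 for E2-KO and 27.4 ± 2.54 for D-KO, against 80 ± 31.3 in WT, where the libraries ranged over 52.9 to 114. Both ratios were lower in every deletion library than in every WT library. Between the deletion genotypes the Lefty1 ratio separated all 3, while the Lefty2 ratio overlapped.

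**Figure D3:**
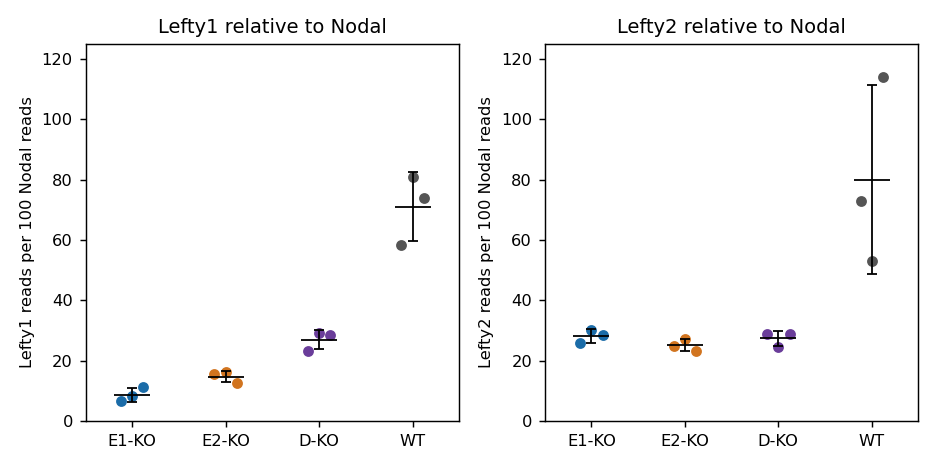
Reads of Lefty1 (left) and Lefty2 (right) per 100 Nodal reads of the same library, in the 3 libraries of each genotype (points), with mean and SD (bars). Lefty1 averages 8.67 for E1-KO, 14.7 for E2-KO and 26.9 for D-KO, against 71.1 in WT, while Lefty2 is at 25.2 to 28.2 in all 3 deletion genotypes, against 80 in WT.

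Smad7, the inhibitory Smad that blocks the type I receptor from within the cell (chromosome 18, bases 75367529 to 75395935), went the other way from the Lefty genes in the single deletions. Its level was 181, 174 and 178 CPM in E1-KO, 157, 152 and 135 CPM in E2-KO and 66.5, 62 and 57.5 CPM in D-KO, against 46.7, 78.3 and 29.5 CPM in WT. Both single deletions lay above all WT libraries, and D-KO lay inside the WT range. Smad7 rose by 1.78 ± 0.23 on the log2 scale in E1-KO (3.43-fold, adjusted p = 0.000102) and by 1.51 ± 0.23 in E2-KO (2.85-fold, adjusted p = 0.000396), and stood at 0.26 ± 0.24 in D-KO (adjusted p = 0.466). The rises in the single deletions held under all 20 alternatives, and stood at 1.20 and 0.92 with WT replicate 2 alone. For D-KO the WT libraries set the direction: 0.70 without WT replicate 2 (adjusted p = 0.0019), -0.03 without WT replicate 3 and -0.34 with WT replicate 2 alone (adjusted p = 0.000517). The summed pluripotency markers had the same order as Smad7 and Acvr1b, at 5620 to 5800 CPM for E1-KO, 5180 to 5390 for E2-KO and 4200 to 4290 for D-KO, against 2940 to 3780 in WT. None of the 9 was at 0, and 8, 8 and 5 of them were called higher, beside 15.7%, 16.7% and 10.6% of all genes. None was called lower, and Tfcp2l1 stood at -0.09 in E2-KO (adjusted p = 0.732) and -0.47 in D-KO (adjusted p = 0.092). The part of these markers in the levels of Smad7 and Acvr1b was not tested.

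Cer1, a secreted antagonist of Nodal made by visceral endoderm of the embryo, had 0 counts in E1-KO, E2-KO and WT and 2 counts in D-KO, 1 each in replicates 1 and 3, and was not tested. At this depth 3 counts over a group correspond to 0.0961 CPM in E1-KO, 0.102 in E2-KO, 0.0998 in D-KO and 0.0949 in WT. Levels below these would rest on fewer than 3 counts.

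Per length, the order in WT ran from Tdgf1 through Nodal at 35.4 ± 9.22 CPM per kb, Lefty1 at 33.1 ± 12.8, Foxh1 at 24.4 ± 6.29, Lefty2 at 22.6 ± 3.9, Smad7 at 12 ± 5.79, Acvr2b at 11.4 ± 4.75 and Smad2 at 10.3 ± 2.23 to Acvr1b at 8.76 ± 0.671. Tdgf1 stood above Nodal, and Lefty2 above Smad7, by more than their summed SDs, and the other neighbours in this order lay within them. In E1-KO, Smad7 at 41.6 ± 0.817 CPM per kb was second to Tdgf1, and Lefty1 at 4.18 ± 1.08 was the lowest of the 9.

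D-KO was set against each single deletion to ask whether the loss of both elements differed from the loss of 1. Against E1-KO, 7 of the 9 genes were called, 5 higher and 2 lower, where 15.9% of all genes were called (8.43% higher, 7.52% lower), and the median log2 fold change was 0.43 beside -0.01 for all genes. Lefty1 was 4.31-fold higher in D-KO than in E1-KO (log2 2.11 ± 0.25, adjusted p = 0.000168) and Tdgf1 2.02-fold higher (1.02 ± 0.10, adjusted p = 3.82e-05). Smad7 was 2.87-fold lower (-1.52 ± 0.23, adjusted p = 0.00111) and Acvr1b 1.99-fold lower (-0.99 ± 0.10, adjusted p = 7.12e-05). These 4 calls held under all 20 alternatives. Foxh1 (0.59 ± 0.17, adjusted p = 0.0277), Nodal (0.47 ± 0.15, adjusted p = 0.0448) and Lefty2 (0.43 ± 0.13, adjusted p = 0.0414) were also called. Without any 1 of the E1-KO or D-KO libraries none of these 3 was called, at 0.55 to 0.66, 0.42 to 0.52 and 0.36 to 0.48, with adjusted p from 0.0619 to 0.156. Nodal and Lefty2 were not called without any 1 of the E2-KO libraries either, at 0.47 and 0.43. Smad2 stood at 0.40 ± 0.13 (adjusted p = 0.0535) and was called under some of the alternatives, among them those without WT replicate 1 (0.39), 2 (0.40) or 3 (0.38).

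Against E2-KO, 4 of the 9 genes were called in D-KO, 2 in each direction, where 4.48% of all genes were called (1.84% higher, 2.64% lower), and the median was 0.18 beside -0.02. Tdgf1 was higher in D-KO (0.60 ± 0.10, adjusted p = 0.00402) and Acvr1b lower (-0.66 ± 0.10, adjusted p = 0.00342), both under all 20 alternatives. Smad7 was lower (-1.25 ± 0.23, adjusted p = 0.0099), a call lost without D-KO replicate 3 (-1.20, adjusted p = 0.0576). Lefty1 was higher (0.96 ± 0.23, adjusted p = 0.0332). That call was lost without E1-KO replicate 2 (0.96), without E2-KO replicate 1 (0.99), 2 (1.00) or 3 (0.88) and without D-KO replicate 1 (1.03), 2 (0.87) or 3 (0.97), at adjusted p = 0.0515 to 0.134. The D-KO and E2-KO libraries did not overlap for Lefty1 and Smad7, nor for Tdgf1 and Acvr1b. They also did not overlap for Lefty2 and Smad2, which were not called (adjusted p = 0.384 and 0.292). The share of all genes separated in this way was not counted for any comparison.

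Between the single deletions, E1-KO against E2-KO, edgeR called none of the 9 genes, where 0.596% of all genes were called (0.322% higher, 0.274% lower). Of the 9, 5 had an unadjusted p below 0.05, as did 10.9% of all genes, and the median was -0.22 beside -0.02. The lowest adjusted p values were those of Lefty1 (-1.15 ± 0.25, adjusted p = 0.0671) and Tdgf1 (-0.42 ± 0.10, adjusted p = 0.0835). DESeq2 called these 2 genes, with 247 called over all genes, and limma voom with a spread per genotype called 7, with 2812 over all. A fit of E1-KO and E2-KO alone also called 7, 3 higher and 4 lower, with 3377 over all. Without WT replicate 1, 2 or 3, edgeR called Lefty1 (-1.14 to -1.15) and Tdgf1 (-0.41 to -0.42), which share the spread estimated with WT. Acvr1b was also called without WT replicate 2 (0.33) or 3 (0.34), and Nodal without WT replicate 2 (-0.38, adjusted p = 0.0262).

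The interaction term asked whether the D-KO change differed from the sum of the E1-KO and E2-KO changes on the log2 scale. It was called for 7 of the 9 genes, 5 positive and 2 negative, where 35.2% of all genes were called (18.1% positive, 17.1% negative), and the median was 0.62 beside -0.01. For Lefty1 the D-KO change was -0.89 beside a sum of -4.84, a difference of 3.95 ± 0.34 (adjusted p = 2.85e-06), and for Lefty2 -0.91 beside -2.46, a difference of 1.55 ± 0.19 (adjusted p = 4.26e-05). Smad7 stood at 0.26 beside a sum of 3.29, a difference of -3.03 ± 0.33 (adjusted p = 2.52e-05). Acvr1b stood at 0.28 beside 2.21, a difference of -1.92 ± 0.15 (adjusted p = 9.41e-07). For these 4 genes the D-KO level lay nearer to WT than that of either single deletion. Tdgf1 had a sum of 0.03 and a D-KO change of 0.82, a difference of 0.80 ± 0.14 (adjusted p = 0.000737), at 0.49 with GC and length trends removed, and these 5 calls held under all 19 alternatives. Nodal had a sum of 0.53 and a D-KO change of 0.55, with an interaction of 0.01 (95% interval -0.44 to 0.46, adjusted p = 0.972). It was called at 0.51 with GC and length trends removed (adjusted p = 0.00475) and at 0.36 with WT replicate 2 alone (adjusted p = 0.00215). Smad2 (0.62 ± 0.19, adjusted p = 0.0192) lost its call without E1-KO replicate 1 or 3 (0.60 each) or E2-KO replicate 2 (0.59), at adjusted p = 0.0502 to 0.0539, and stood at 0.04 with GC and length trends removed. Foxh1 (0.66 ± 0.24, adjusted p = 0.0422) kept its call without WT replicate 1 or E2-KO replicate 1, and lost it in the other 10 fits that left out 1 library: 0.53 and 0.56 without WT replicates 2 and 3, 0.72, 0.61 and 0.64 without E1-KO replicates 1, 2 and 3, 0.63 and 0.60 without E2-KO replicates 2 and 3, and 0.69, 0.66 and 0.62 without D-KO replicates 1, 2 and 3. It was 1.42 and still called with the trends removed.

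**Figure D4:**
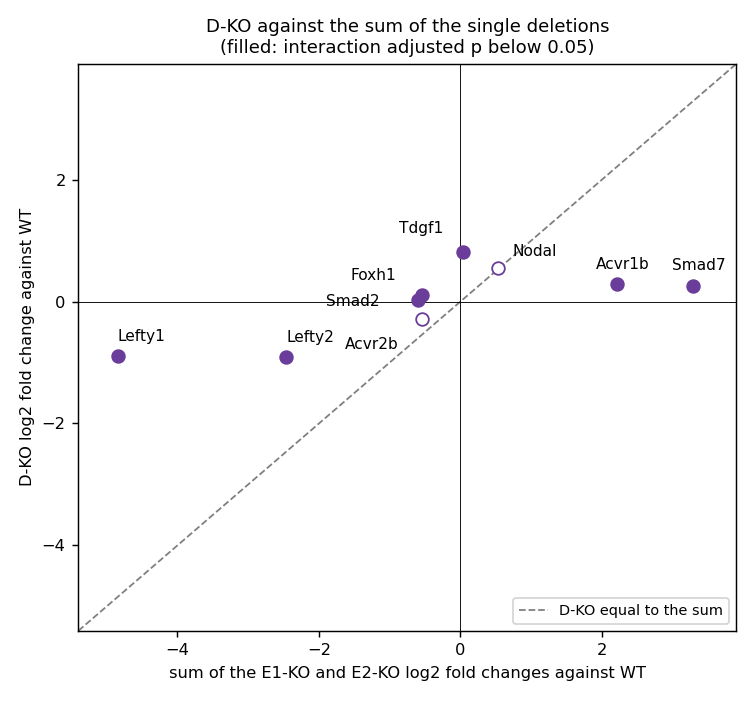
D-KO log2 fold change against WT (vertical axis) beside the sum of the E1-KO and E2-KO log2 fold changes (horizontal axis) for the 9 tested genes; on the dashed line both are equal, and filled points have an interaction adjusted p below 0.05. Lefty1 is at -0.89 beside -4.84 and Smad7 at 0.26 beside 3.29, far from the line, and Nodal at 0.55 beside 0.53 lies on it.

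Another 37 genes of Nodal, activin and TGF-beta signalling were counted by role, and 29 passed the filter on low counts. Of these, 6 were called higher and 5 lower in E1-KO, 7 higher and 7 lower in E2-KO, and 3 higher and 11 lower in D-KO, with medians of -0.07, -0.10 and -0.09. The shares of all genes called, 15.7% higher and 18.5% lower for E1-KO, 16.7% higher and 18.6% lower for E2-KO, and 10.6% higher and 12.2% lower for D-KO, are the background of these counts and of those by role below. The E1-KO total lay near that background, 11 of 29 genes where 34.2% of all genes were called, and the E2-KO and D-KO totals of 14 stood beside 35.3% and 22.8%. The total called ranged from 10 to 15, from 8 to 16 and from 6 to 20 over the alternatives. For E2-KO it was 8 with limma voom, with only the genotypes compared and without E2-KO replicate 1. For D-KO it was 8 with limma voom, 6 with only the genotypes compared and 20 without WT replicate 2. Calls over all genes moved as well. For E2-KO they were 5919 in the main fit, 3229 with limma voom and 2535 with only the genotypes compared. For D-KO they were 3824, 1927 and 1438 in that order. Fits that left out 1 library gave 3969 to 8887 for E2-KO and 2413 to 7006 for D-KO. Gdf1, Inhba and Acvr1c had no count in any library, and Cfc1 none in WT.

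Among the 6 tested genes for ligands and their processing, 1 was called higher and 1 lower in E1-KO, 2 higher in E2-KO, and 1 higher and 1 lower in D-KO. Inhbb, the activin beta B subunit, rose in all 3: 176 ± 3.8 CPM for E1-KO, 155 ± 2.4 for E2-KO and 103 ± 1.71 for D-KO, against 44 ± 11.1 in WT. Its log2 fold changes were 2.00 ± 0.14, 1.81 ± 0.14 and 1.23 ± 0.14 in that order (adjusted p = 5.18e-07, 1.81e-06 and 5.16e-05), and no deletion library overlapped WT. Of the 3 tested receptors, 1, 2 and 3 were called lower in E1-KO, E2-KO and D-KO, beside 18.5%, 18.6% and 12.2% of all genes. Acvr2a, a type II receptor, had 18.1 ± 0.961 CPM in D-KO against 32.5 ± 7.4 in WT (-0.84 ± 0.16, adjusted p = 0.00182), at -0.45 with GC and length trends removed and -0.41 with WT replicate 2 alone, both called. Tgfbr2, the type II receptor for TGF-beta, had 1.3 ± 0.457 CPM in D-KO against 4.2 ± 0.641 in WT (-1.69 ± 0.31, adjusted p = 0.0015). Tgfbr1, its type I partner, was called lower in E2-KO (-0.71 ± 0.14, adjusted p = 0.00208), at -0.14 and not called with GC and length trends removed. In the fit of all 12 libraries, for which alone these values are given, Tgfbr1 was also called lower in D-KO (-0.66, adjusted p = 0.00484). Acvr2a was called lower there in E1-KO (-0.74, adjusted p = 0.00287) and E2-KO (-0.70, adjusted p = 0.0043) as well, and Tgfbr2 in D-KO only. Of the 4 tested effectors and cofactors, 1 was called higher in E1-KO, 1 higher and 1 lower in E2-KO, and 1 higher and 2 lower in D-KO. Drap1, a corepressor that binds Foxh1 in the mouse, was called higher in E2-KO (0.73 ± 0.17, adjusted p = 0.00437) and D-KO (0.55 ± 0.17, adjusted p = 0.0283), at 0.09 and 0.13 and not called with GC and length trends removed. Its D-KO call was also lost without WT replicate 1 (0.45) or 3 (0.40) or D-KO replicate 1 (0.60), 2 (0.60) or 3 (0.46). Drap1 was called higher in E1-KO too (0.75, adjusted p = 0.00345), a value given for the fit of all 12 libraries alone.

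All 11 further inhibitors were tested, and 4 were called higher and 1 lower in E1-KO, 3 higher and 2 lower in E2-KO, and 1 higher and 2 lower in D-KO, totals of 5, 5 and 3 beside 34.2%, 35.3% and 22.8% of all genes. Skil, which encodes the Smad corepressor SnoN, fell in all 3: 80 ± 3.15 CPM for E1-KO, 91.6 ± 3.65 for E2-KO and 132 ± 0.994 for D-KO, against 347 ± 116 in WT. Its log2 fold changes were -2.12 ± 0.17, -1.92 ± 0.17 and -1.39 ± 0.17 (adjusted p = 1.49e-06, 4.02e-06 and 7.21e-05). The E2-KO value of Skil ranged from -2.10 to -1.27 over the alternatives. Tgif1, a homeodomain corepressor of Smads, rose in all 3, to 155 ± 3.95 CPM for E1-KO, 166 ± 0.611 for E2-KO and 136 ± 5.43 for D-KO, against 95.4 ± 8.1 in WT. Its log2 fold changes were 0.70 ± 0.09, 0.80 ± 0.09 and 0.51 ± 0.09 (adjusted p = 8.42e-05, 3.36e-05 and 0.00159), the last not called in a fit of D-KO and WT alone (0.52, adjusted p = 0.0519). Smurf1, a ubiquitin ligase that acts on receptors and Smads, was higher in E1-KO (0.61 ± 0.10, adjusted p = 0.000486), at 0.38 and still called with the trends removed. With all 12 libraries Smurf1 was also called higher in E2-KO (0.37, adjusted p = 0.0127) and not called in D-KO (0.26, adjusted p = 0.0804). Of the 5 tested target genes, 2 were called lower in E1-KO, 1 higher and 2 lower in E2-KO, and 3 lower in D-KO. Foxa2, an endoderm transcription factor, had 3 counts in the E1-KO libraries together against 91 in WT, a log2 ratio of totals of -4.90 with an exact 95% interval of -7.21 to -3.31 that covers counting error only (edgeR adjusted p = 0.000143). Foxa2 was also called lower in E2-KO (-1.70 ± 0.49, adjusted p = 0.0146) and D-KO (-1.67 ± 0.49, adjusted p = 0.0218) with all 12 libraries.

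**Figure D5:**
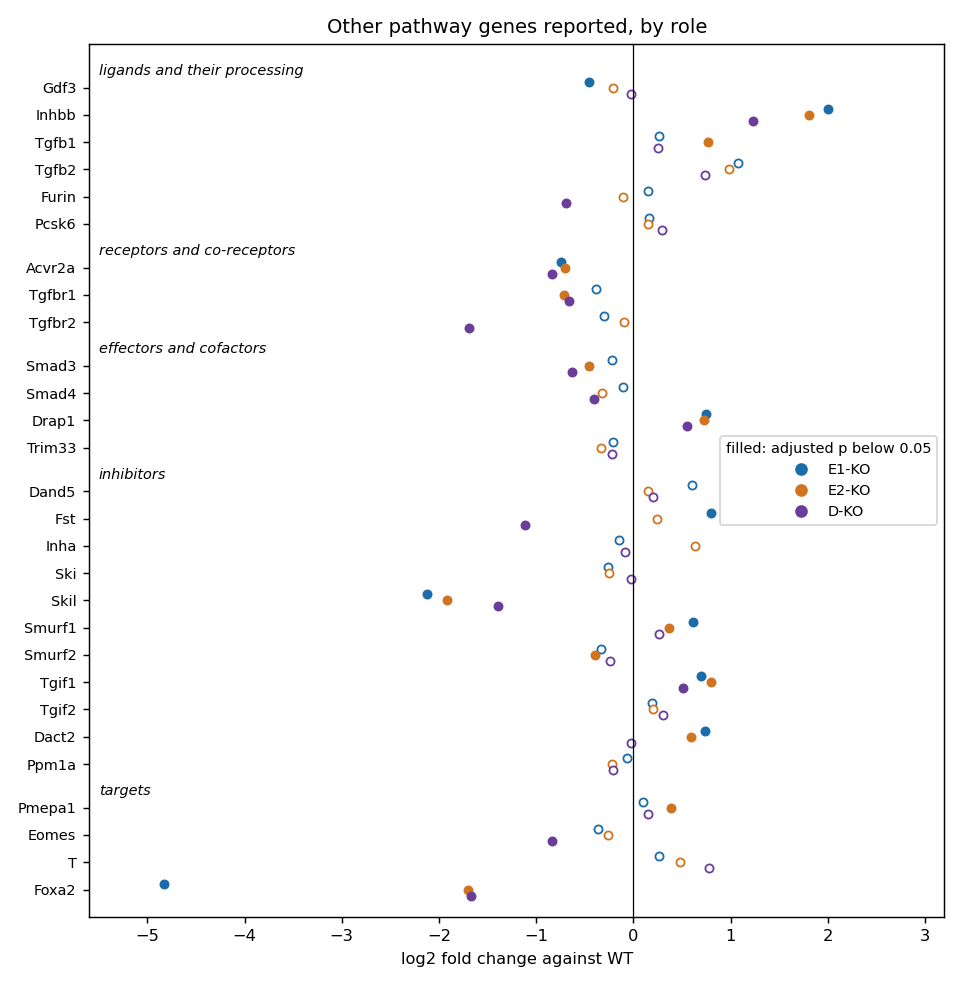
Log2 fold change against WT (horizontal axis) of other pathway genes that passed the filter, grouped by role, in E1-KO, E2-KO and D-KO; filled points have an adjusted p below 0.05. Inhbb lies at 1.23 to 2.00 and Skil at -2.12 to -1.39 in the 3 genotypes; the E1-KO point of Foxa2 is a fitted value that rests on 3 counts.

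Over all 12 libraries, the genes with the pattern most like Nodal, by root mean square difference of gene-centred log2 CPM among 12232 candidates, were Farsa (0.10), Ppil1 (0.10) and Acot7 (0.11), where the SD of Nodal itself was 0.31. The genes most like Lefty1 were Sox3 (0.31), Sox17 (0.35) and Dpysl3 (0.37). Sox17 is one of the endoderm markers counted above and Sox3 one of the epiblast markers.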

How the data were processed

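The deposited tables of the 12 RNA-seq libraries hold raw read counts per gene. Per the submitters' processing notes, the authors used HISAT2 2.1.0, HTSeq 0.9.1, DESeq2 1.18.1 and the build mm10. Which annotation and strand setting they counted with is not given in the sources used here. No exon of these genes overlaps an exon of another gene in GENCODE M21 on GRCm38, the source of positions and lengths. The 10 samples of 4C and ChIP were not analysed here. Lines without a gene stayed out, with no-feature reads at 1.11 to 1.2 per counted read. Genes kept by filterByExpr (16765) were scaled by TMM and fitted with edgeR 4.0.16 (R 4.3.3, robust quasi-likelihood, 1 mean per genotype, common dispersion 0.0265) for 7 contrasts. The code was run on simulated data with the same spread per gene in every genotype and no GC trend. That run cannot show how the test behaves where WT varies more than the deletions. Alternatives used limma 3.58.1, DESeq2 1.42.0, RLE or library-total scaling, no filter, only the genotypes compared, a replicate block, GC and length trends removed with mgcv 1.9.3 (97.1% of tested genes have a value), and left-out libraries. All 10 genes are named. Of the other pathway genes, up to 3 called risers and 3 fallers with the smallest adjusted p per comparison with WT are named, with their calls in the other comparisons with WT. Of those most like Nodal and Lefty1, 3 each are named whose average log2 CPM reached 1, without predicted loci. A gene that this rule picked is not reported here by name, and the counts include it. Genes and lists were chosen with earlier results of these data known. Intervals on counts cover counting error only.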

Additional observations from a re-analysis of the deposited data

Results flagged for a closer look

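The change in D-KO differed from the sum of the changes in E1-KO and E2-KO, by edgeR's interaction test on the log2 scale, for 7 genes. The interaction was 3.95 for Lefty1, 1.55 for Lefty2, 0.80 for Tdgf1, 0.66 for Foxh1 and 0.62 for Smad2, and -3.03 for Smad7 and -1.92 for Acvr1b. Those of Foxh1 and Smad2 lost their calls in 10 and 3 of 12 fits that left out 1 library.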

How the results depend on the processing

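The calls of Lefty1, Lefty2, Smad7 and Acvr1b in E1-KO and E2-KO, of Lefty2 and Tdgf1 in D-KO, and of Lefty1, Lefty2, Tdgf1, Smad7 and Acvr1b in the interaction held under every alternative that could be fitted. The interaction needs all 4 genotypes and has no fit of only the genotypes compared. For the other changes below the cause was not tested. A fit of 2 genotypes has fewer libraries and takes its spread per gene from those 2 alone. The main fit shares 1 spread per gene over all 12 libraries, while the median SD was 0.35 in WT and 0.11 to 0.12 in the deletions. Over all genes, fits of 2 genotypes gave fewer calls against WT and more between the deletions. The part of the shared spread in this was not tested. Without WT replicates 1 and 3, the lone WT library is assumed to vary like the other genotypes. Counts limit low genes such as Cer1 and Foxa2.

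Directions reversed without WT replicates 1 and 3 for Nodal in E1-KO (-0.28), Acvr2b in E1-KO (0.32), D-KO (0.14) and the interaction (-0.18), Foxh1 in D-KO (-0.10), Smad2 in E2-KO (0.04) and Smad7 in D-KO (-0.34). With GC and length trends removed they reversed for Nodal (-0.26), Tdgf1 (0.01) and Smad2 (0.03) in E1-KO, Smad2 in E2-KO (0.31) and Foxh1 in D-KO (-0.30). Scaling by library totals reversed Acvr2b in E1-KO (0.02), Foxh1 in E2-KO (0.01) and the Nodal interaction (-0.14), which was 0.00 without the filter. With that scaling the median of all genes was 0.10 in E1-KO against WT, -0.11 in D-KO against E1-KO and -0.18 in the interaction, beside -0.01 in each with TMM. The share of calls that were higher was 57.1% instead of 45.9% in E1-KO against WT, 53.4% instead of 47.4% in E2-KO against WT, 44.2% instead of 46.5% in D-KO against WT, 35.9% instead of 52.9% in D-KO against E1-KO, 32% instead of 41.1% in D-KO against E2-KO, 65% instead of 54% in E1-KO against E2-KO and 38.7% instead of 51.4% in the interaction. Leaving out 1 library reversed Nodal in E1-KO (-0.06 to 0.31) and in the interaction (-0.22 to 0.15), Acvr2b in E1-KO (-0.29 to 0.28), D-KO (-0.45 to 0.10) and the interaction (-0.14 to 0.44), Foxh1 in E2-KO (-0.27 to 0.07) and D-KO (-0.09 to 0.24), Smad2 in D-KO (-0.09 to 0.20) and Smad7 in D-KO (-0.03 to 0.70).

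Of the 9 genes, 8 were called in E2-KO against WT with GC and length trends removed, where 5236 of all genes were called. In D-KO against WT 2 were called with only those genotypes fitted, beside 1438 of all genes. In D-KO against E1-KO 4 were called with library totals, beside 2725 of all genes. In E1-KO against E2-KO the number was 2 with DESeq2, 7 with limma voom, 1 without the filter, 7 with only those genotypes, 2 with the trends removed and 7 without WT replicates 1 and 3. Leaving out 1 library gave 4 to 7 for E1-KO, 4 to 7 for E2-KO and 2 to 6 for D-KO against WT, 4 to 8 in D-KO against E1-KO, 2 to 4 in D-KO against E2-KO, 0 to 4 in E1-KO against E2-KO and 5 to 7 in the interaction.

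Over all genes tested, limma voom called 3278, 3229 and 1927 in E1-KO, E2-KO and D-KO against WT, 7960 and 5678 in D-KO against E1-KO and E2-KO, and 2812 in E1-KO against E2-KO. Only the genotypes compared gave 2552, 2535, 1438, 8025, 5872 and 3377 in the same order. Without WT replicates 1 and 3 there were 6238 in D-KO against WT, 8030 and 6158 in D-KO against E1-KO and E2-KO, and 3457 in E1-KO against E2-KO. D-KO against E2-KO had 1145 with DESeq2, 1472 without the filter and 1539 with the trends removed, and E1-KO against E2-KO had 247, 415 and 300. Leaving out 1 library gave 3965 to 8753, 3969 to 8887 and 2413 to 7006 against WT, 1174 to 4934 and 227 to 2875 in D-KO against E1-KO and E2-KO, 16 to 722 in E1-KO against E2-KO and 4621 to 8673 in the interaction.

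Replicate numbers are shared by the genotypes but did not pair the libraries: deviations of same-numbered libraries correlated at -0.07 to 0.07 over 18 pairs, and 4 of 12 libraries correlated best with their own number. With the replicate number as a block, 4, 5 and 4 of the 9 genes were called in E1-KO, E2-KO and D-KO against WT, 5 and 4 in D-KO against E1-KO and E2-KO, 0 in E1-KO against E2-KO and 6 in the interaction, and the Nodal interaction was -0.01. Over all genes the fit with the block called 5414, 5582 and 3467 in E1-KO, E2-KO and D-KO against WT. It called 2310 and 581 in D-KO against E1-KO and E2-KO, 71 in E1-KO against E2-KO and 5609 in the interaction. The calls that the block lost were Foxh1 and Smad2 in E1-KO, Nodal and Lefty2 in D-KO against E1-KO, and Foxh1 in the interaction.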
